A study of Mus musculus with 2 samples.

Results

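Ctcf and 9 genes of the cohesin complex and its regulators were followed in RNA of mouse embryonic fibroblasts, a primary culture of connective tissue cells from midgestation embryos. The members were chosen by gene name (Ctcf, Smc1a, Smc3, Rad21, Stag1, Stag2, Nipbl, Wapl, Pds5a and Pds5b), and all 10 were found among the 25430 gene names of the deposited table, none of them repeated there. Wapl is listed under its older name, Wapal. One library came from Sptbn1 knockout fibroblasts, described in the series' title as homozygous, and the other from wild-type fibroblasts. Both cultures were derived at E13.5 from matings of Sptbn1+/- mice, were genotyped, replated after confluence and grown in DMEM/F12 with 10% fetal bovine serum. Sptbn1 encodes beta-2 spectrin (β2SP), a membrane skeleton protein that also serves as an adaptor in TGF-β signalling. No source used here gives the number of embryos behind each culture. With 1 library per genotype, each value below compares 2 libraries and has no replicate check, so no SD or test of a difference is given.

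Cohesin is a protein ring that encircles DNA. SMC1A and SMC3 are long coiled-coil ATPases that form the ring together with RAD21, the subunit that closes it, and either STAG1 or STAG2 binds to RAD21. NIPBL loads the ring onto chromatin and drives the extrusion of DNA loops, WAPL together with PDS5A or PDS5B opens the ring and releases it, and the zinc finger protein CTCF halts extruding cohesin at its binding sites. In dividing cells such as cultured fibroblasts the same ring also holds sister chromatids together until anaphase, when separase cleaves RAD21.

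Levels are in FPKM, fragments scaled to transcript length and to the size of the library, and a difference is log2((knockout FPKM + 1)/(wild-type FPKM + 1)). A gene is termed measured where its mean over both libraries reached 1 FPKM, which held for 11070 genes and for all 10 members, each with a mean above 5 FPKM. Sptbn1 itself was listed at 36.6 FPKM in knockout cells and 69.6 FPKM in wild-type cells, a difference of -0.91, so the knockout library retained 52.5% of the wild-type level. Which part of the gene was deleted is not given in the labels, so its FPKM alone is a limited check of the genotype. The sum of all FPKM was 279927 for knockout and 386567 for wild type. No total count of fragments was at hand, and the absolute depth is unknown. Among 3100 low rows (above 0 in both libraries, mean below 0.3 FPKM) the commonest ratio of knockout to wild type was 1.61, shared by 409 rows within 0.005 on the log2 scale, so 1 fragment was worth more FPKM in the knockout library, the shallower of the pair.

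All 12 fibroblast markers were measured in both libraries and summed to 4182 FPKM in knockout cells and 4468 FPKM in wild-type cells. Among markers of other cell types, the 12 macrophage and leukocyte entries were all measured and summed to 796 FPKM in knockout cells and 1283 FPKM in wild-type cells. They included the joined lysozyme entry, which alone was at 572 FPKM in knockout cells and 979 FPKM in wild-type cells. Of these entries 11 of 12 were below 0, as were 10 of 12 fibroblast markers and 63.1% of all measured genes. The median difference was -0.51 for the macrophage and leukocyte entries and -0.09 for the fibroblast markers. Of 6 neural and glial markers 5 were measured (sums of 42.6 FPKM in knockout cells and 31.4 FPKM in wild-type cells). Of 6 endothelial, 6 epithelial and 6 skeletal muscle markers, 0, 1 (Krt18) and 1 (Des) were measured. Tie1, Myod1 and Myog were listed at 0 in both libraries and Epcam at 0 in knockout cells. The part of these other cells in the levels of the cohesin genes was not tested, and in bulk RNA fewer cells of a type cannot be told apart from less RNA per cell.

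Ctcf and the cohesin genes were at near-equal levels in the libraries. On the deposited scale Rad21 and Smc1a were the only members above 0, each at 111% of the wild-type level. The other 8 members lay between 89.9% and 98.4% of the wild-type level. None of the 10 reached a 2-fold difference, which 0.361% of measured genes did on the higher and 0.379% on the lower side. At 1.1-fold or more, 2 members lay on the higher side (Rad21 and Smc1a) and 1 on the lower side (Stag1), where 13.6% and 29.1% of all measured genes lay. The median of the members was -0.05, and that of all measured genes was -0.05 as well. In all, 8 members were below 0, as were 63.1% of measured genes, and 2 were above 0, as were 36.9%. Small differences depend on the scaling. With the median gene set to 0, 6 members lay below 0. With a common upper quartile, which put the median gene at 0.00, 4 did. Centred on the median gene, Stag1 no longer reached 1.1-fold, and 20.0% of measured genes were then 1.1-fold or more higher and 19.4% lower. Stag1 also missed 1.1-fold with a common upper quartile (19.7% of measured genes higher, 19.3% lower) and with a common FPKM sum taken without small RNA, ribosomal RNA and outlying rows (18.4% higher, 20.9% lower). On a common sum of all FPKM the 10 members all lay above 0, and 85.6% of measured genes were 1.1-fold or more higher and 1.89% lower.

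**Figure D1:**
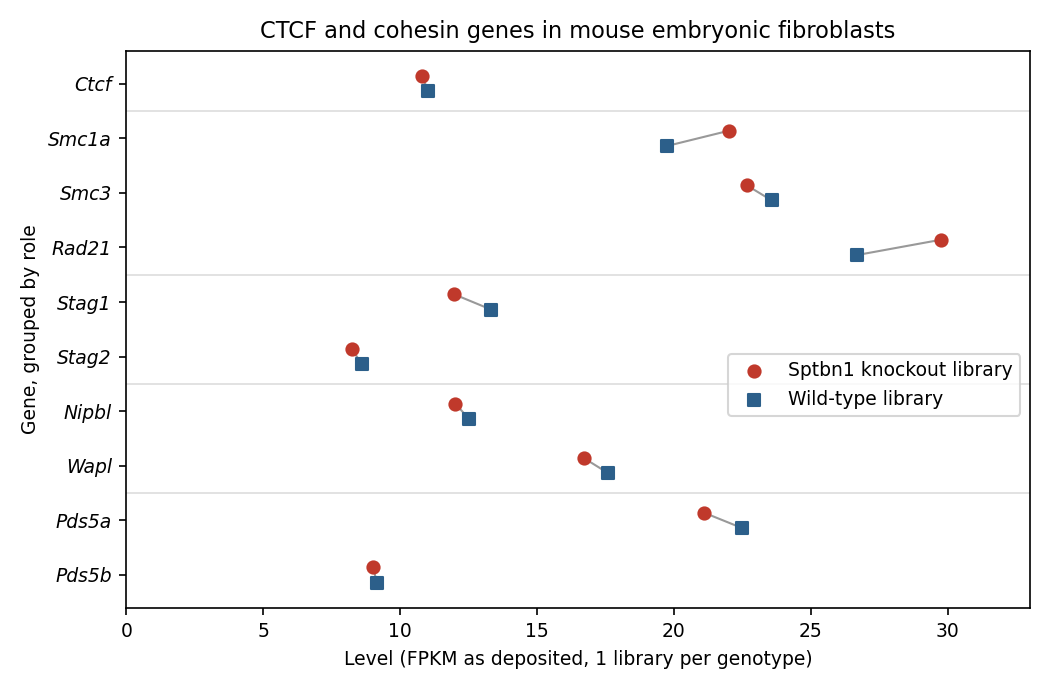
Level of each CTCF and cohesin gene in FPKM (horizontal axis, from 0) in the Sptbn1 knockout library (circles) and the wild-type library (squares), 1 library each and without error bars; rules separate the roles. Rad21 is highest at 29.7 FPKM in knockout cells and 26.7 FPKM in wild-type cells, Stag2 lowest at 8.23 FPKM in knockout cells and 8.61 FPKM in wild-type cells, and the circle lies right of the square for Rad21 and Smc1a only.

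Ctcf, the insulator gene, was listed at 10.8 FPKM in knockout cells and 11.0 FPKM in wild-type cells, a difference of -0.03. Of all measured genes, 87.6% differed by more, in either direction. Ctcf was the member eighth in level in both libraries, and 26.9% of measured genes had a higher mean level. Its germline paralogue Ctcfl (BORIS) was listed at 0 in both libraries.

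On the deposited scale the 3 ring genes did not all lie on the same side of 0. The side of Smc3 depends on the scaling: it was at -0.004 centred on the median gene and at 0.004 with a common upper quartile. Rad21 was at 29.7 FPKM in knockout cells and 26.7 FPKM in wild-type cells, a difference of 0.15. Smc1a was at 22.0 FPKM in knockout cells and 19.8 FPKM in wild-type cells, also 0.15, whereas its partner Smc3 was at 22.7 FPKM in knockout cells and 23.6 FPKM in wild-type cells, -0.05. Of all measured genes, 12.2% had a higher ratio than Rad21 and 12.4% a higher ratio than Smc1a.

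Ratios between genes of the same library do not change with the scaling of that library. Rad21 over Smc1a was 1.35 in knockout cells and 1.35 in wild-type cells. Rad21 over Smc3 was 1.31 in knockout cells and 1.13 in wild-type cells, and Smc1a over Smc3 was 0.972 in knockout cells and 0.838 in wild-type cells, each a shift of 0.21 on the log2 scale of FPKM. Among the 45 pairs of members the largest shift was that of Rad21 over Stag1, 0.31, which pairs the highest with the lowest difference.

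The subunits that bind the ring through RAD21 were lower in level than the ring genes. Stag1 was listed at 12.0 FPKM in knockout cells and 13.3 FPKM in wild-type cells, the lowest difference of the members at -0.14. Stag2 was at 8.23 FPKM in knockout cells and 8.61 FPKM in wild-type cells (-0.06). Stag1 thus had the higher level per length in both libraries, and Stag2 made up 40.7% of the summed Stag1 and Stag2 FPKM in knockout cells and 39.2% in wild-type cells. Rad21 over that sum was 1.47 in knockout cells and 1.22 in wild-type cells.

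The loader gene Nipbl was at 12.0 FPKM in knockout cells and 12.5 FPKM in wild-type cells (-0.05). The release factor gene Wapl was at 16.7 FPKM in knockout cells and 17.6 FPKM in wild-type cells (-0.07). Their ratio, Nipbl over Wapl, was 0.719 in knockout cells and 0.710 in wild-type cells, so loader and release factor RNA kept nearly the same proportion. Of the PDS5 genes, whose products work with WAPL in release and also in protecting cohesion, Pds5a was at 21.1 FPKM in knockout cells and 22.5 FPKM in wild-type cells (-0.09). Pds5b was at 9.01 FPKM in knockout cells and 9.15 FPKM in wild-type cells (-0.02). Pds5a made up 70.1% of their sum in knockout cells and 71.1% in wild-type cells.

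In both libraries the order of levels began with Rad21 and Smc3 and ended with Ctcf, Pds5b and Stag2, with Wapl below both Smc1a and Pds5a. Neighbours changed places in 2 spots. Smc1a lay above Pds5a in knockout cells by 0.06 on the log2 scale of FPKM and below it in wild-type cells by 0.19. Nipbl lay above Stag1 in knockout cells by 0.00 and below it in wild-type cells by 0.09. Without replicates it was not tested which neighbours differ. From highest to lowest member the levels spanned 3.62-fold in knockout cells and 3.10-fold in wild-type cells.

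**Figure D2:**
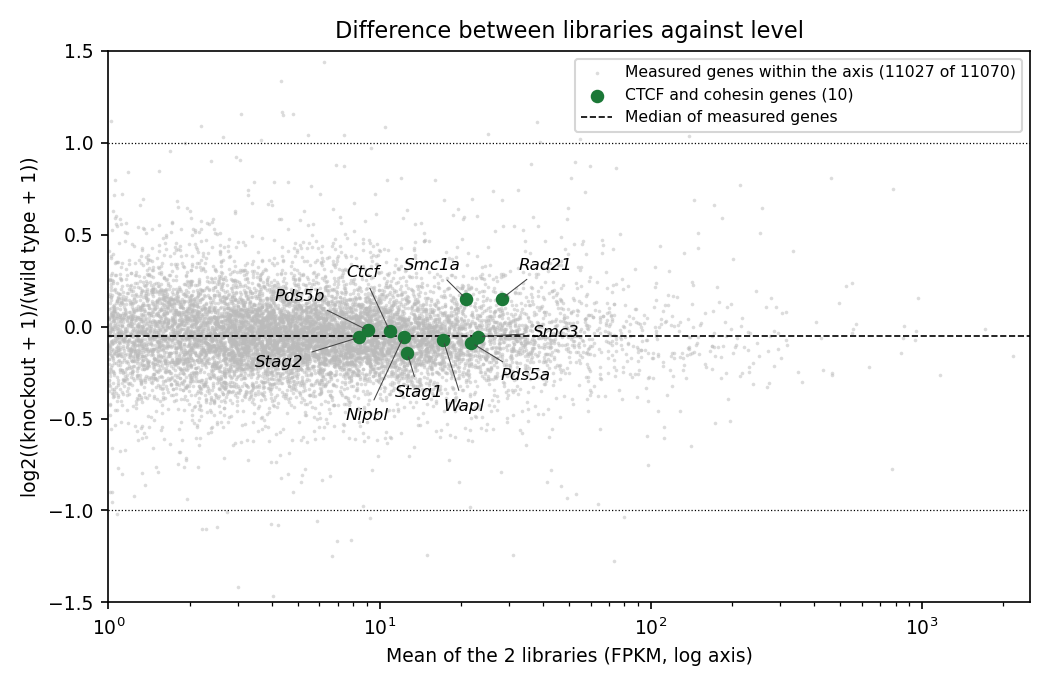
Difference between the libraries, log2((knockout + 1)/(wild type + 1)) (vertical axis), against the mean level in FPKM (horizontal log axis) for 11027 of the 11070 measured genes (grey, those within the axis) and the 10 members (green); dotted lines mark 2-fold and the dashed line the median gene at -0.05. The members lie between -0.14 and 0.15, within the bulk of genes at their level.

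Sequence before the gene starts is shown for Ctcf and for the ring partners Smc1a and Smc3, on opposite sides of 0 as deposited. It is also shown for the paralogues Pds5a and Pds5b, which differ most in level among the paralogue pairs. Of the 10 members, 7 had an entry in the RefSeq promoter table of GRCm38.p6, which is not the build used for the alignment. Rad21, Stag2 and Nipbl had none, so the pair of Stag1 and Stag2 could not be shown. The 250 bases before the start are given 5′ to 3′ on the strand of the gene, at chr8:105636288-105636537 (+) for Ctcf, chrX:152016178-152016427 (+) for Smc1a, chr19:53600146-53600395 (+) for Smc3, chr5:65698237-65698486 (-) for Pds5a and chr5:150673577-150673826 (+) for Pds5b. Capitals mark matches, on either strand, to 4 short motifs, searched by their letters: the CCAAT box, the GC box GGGCGG, the E2F-type motif TTGGCGC and the YY1 core CCATNTT.
Ctcf: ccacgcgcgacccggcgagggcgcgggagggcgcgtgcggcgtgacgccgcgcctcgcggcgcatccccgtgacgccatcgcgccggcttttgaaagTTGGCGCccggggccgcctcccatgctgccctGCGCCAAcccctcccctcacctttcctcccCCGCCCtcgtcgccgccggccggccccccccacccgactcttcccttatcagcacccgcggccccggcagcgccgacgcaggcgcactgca
Smc1a: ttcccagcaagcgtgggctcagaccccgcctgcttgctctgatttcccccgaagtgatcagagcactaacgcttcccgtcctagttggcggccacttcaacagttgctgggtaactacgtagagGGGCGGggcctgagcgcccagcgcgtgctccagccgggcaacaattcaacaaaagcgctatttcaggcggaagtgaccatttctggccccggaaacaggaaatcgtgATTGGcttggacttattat
Smc3: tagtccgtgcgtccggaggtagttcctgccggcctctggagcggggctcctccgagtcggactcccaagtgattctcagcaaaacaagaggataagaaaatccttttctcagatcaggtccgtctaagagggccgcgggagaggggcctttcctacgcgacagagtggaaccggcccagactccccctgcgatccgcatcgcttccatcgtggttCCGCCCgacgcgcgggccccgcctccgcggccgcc
Pds5a: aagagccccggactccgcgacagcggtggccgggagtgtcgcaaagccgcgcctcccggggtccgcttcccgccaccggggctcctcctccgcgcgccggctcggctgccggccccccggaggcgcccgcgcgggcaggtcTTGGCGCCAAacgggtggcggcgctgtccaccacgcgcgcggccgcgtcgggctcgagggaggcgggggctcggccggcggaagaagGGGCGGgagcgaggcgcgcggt
Pds5b: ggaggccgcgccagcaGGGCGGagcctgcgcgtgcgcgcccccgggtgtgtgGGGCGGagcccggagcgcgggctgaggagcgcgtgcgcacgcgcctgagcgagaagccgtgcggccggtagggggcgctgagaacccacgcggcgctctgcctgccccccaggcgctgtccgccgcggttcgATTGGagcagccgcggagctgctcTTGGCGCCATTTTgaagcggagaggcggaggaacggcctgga
The first bases after the start used lay in no GENCODE transcript of Ctcf or Smc3, and in 2 of Smc1a, 1 of Pds5a and 3 of Pds5b. The starts of Ctcf and Smc3, and distances from them, are thus less certain. Ctcf held 2 separate E2F-type matches, which began 153 and 121 bases before the start. Pds5a held 2 that overlap, on opposite strands, and in Pds5b the E2F-type match shares its last base with the first base of the YY1 core. The letters were chosen after the sequences had been read, and a match is not evidence of binding. The GC box was found before all 7 gene starts, against 32.9% of 27025 promoters of the same length (1 per gene) and 62.0% of the 7306 among them that belong to measured genes. The E2F-type motif was found in 3 of 7 (Ctcf, Pds5a and Pds5b), against 2.05% of all promoters and 3.86% of those of measured genes. The CCAAT box was found in 4 of 7 (34.5% of all, 36.4% of measured) and the YY1 core in 2 of 7 (12.5% and 9.85%). The E box CACGTG and the TATA box TATAAA were found in none of the 7. All promoters held them at 6.05% and 13.0%, and promoters of measured genes at 8.76% and 6.19%. The 7 windows held between 56.8% (Smc1a) and 80.4% (Pds5a) G and C, where the median was 52.0% over all promoters and 60.4% over those of measured genes.

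Smc1a was the 1 member of 10 whose p-value in the authors' deposited table fell under 0.05, a level that 5.6% of measured genes passed. Smc1a and Rad21 differed alike between the libraries, yet the authors' deposited table gives p = 0.0334 for Smc1a and p = 0.329 for Rad21. The other 8 members had p-values between 0.345 (Stag1) and 0.899 (Pds5b) in the authors' deposited table. These p-values rest on 1 library per genotype and hold no spread between cultures.

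Read as two-sided normal p-values, they imply a standard error of each log2 ratio of FPKM. The implied standard error was 0.07 for Smc1a and 0.16 for Rad21, and between 0.16 and 0.21 for all members but Smc1a. That of Smc1a was 0.386 times the median of the 500 measured genes nearest to it in level, of which 12 had a lower one. For the other members this quotient lay between 0.781 and 0.994. An implied error less than 0.5 of the median at its level was found for 232 genes, 2.1% of those with a value. The implied error is computed from the ratio and the p-value, so it is a restatement of that p-value at a given ratio and no separate measurement.

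**Figure D3:**
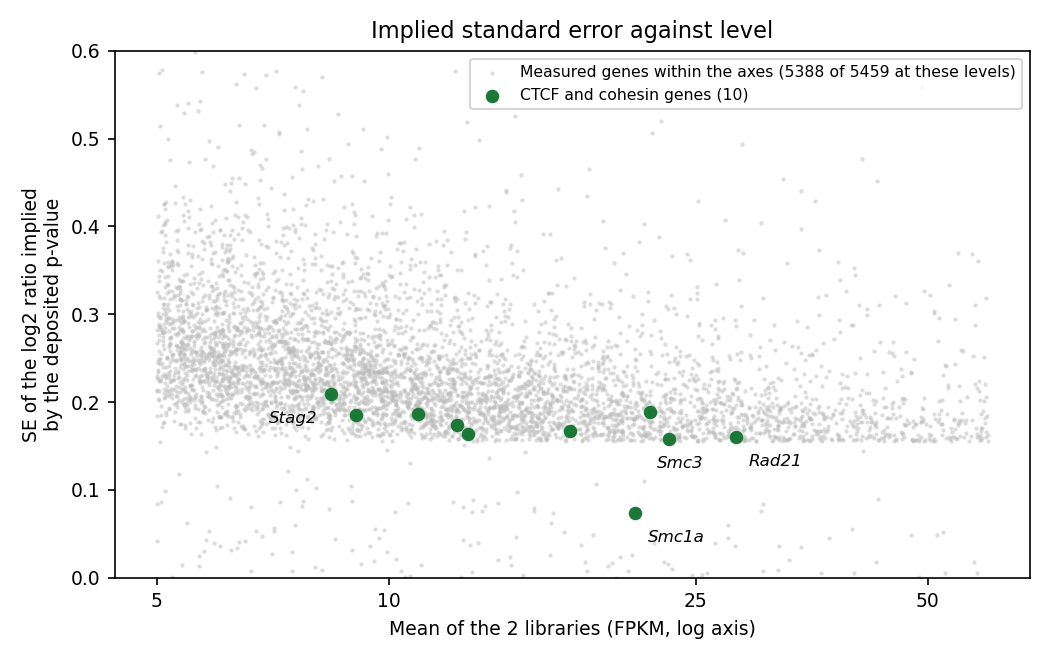
Standard error of the log2 ratio implied by the p-values of the authors' deposited table (vertical axis, log2 units) against the mean level in FPKM (horizontal log axis) for 5388 of 5459 measured genes with a mean of 5 to 60 FPKM (grey) and the 10 members (green). Smc1a lies at 0.07, below the lower edge of most genes, and the others lie between 0.16 and 0.21.

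Smc1a and Stag2 are the members on the X chromosome, and on the deposited scale they lay on opposite sides of 0 (0.15 and -0.06). Centred on the median gene they were at 0.20 and -0.01. Y-linked genes were present in both libraries: Ddx3y was at 10.1 FPKM in knockout cells and 11.2 FPKM in wild-type cells, and Eif2s3y at 13.4 FPKM in knockout cells and 14.2 FPKM in wild-type cells. Uty (-0.12) and Kdm5d (0.03) were measured as well. Xist, the RNA that coats the inactive X chromosome, was listed at 0.0410 FPKM in knockout cells and 0.488 FPKM in wild-type cells. The part of the X chromosome in the difference of Smc1a was not tested.

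The partners and cofactors of the ring ranged from -0.26 to 0.25, against -0.14 to 0.15 for the members, around a similar median. The levels were unlike: the measured cofactors had means of 1.19 to 11.4 FPKM, and the members had means of 8.42 to 28.2 FPKM. Implied standard errors were 0.25 to 0.59 for these cofactors and 0.07 to 0.21 for the members. The part of level in the wider range was not tested. Of 12 listed, 11 were measured, 3 above and 8 below 0, with a median of -0.05. At 1.1-fold or more, 1 lay on the higher and 4 on the lower side. Among all measured genes 36.9% were above 0, 13.6% were 1.1-fold or more higher and 29.1% lower. Mau2, the partner of NIPBL in loading, was at 4.80 FPKM in knockout cells and 5.0 FPKM in wild-type cells (-0.05). Of the acetyltransferase genes for SMC3, Esco1 was at 4.93 FPKM in knockout cells and 4.67 FPKM in wild-type cells (0.06), and Esco2, which acts in S phase, was at 3.07 FPKM in knockout cells and 3.77 FPKM in wild-type cells (-0.23). Hdac8, whose product removes that acetyl mark, was at 2.34 FPKM in knockout cells and 3.01 FPKM in wild-type cells (-0.26). Timeless, a replication fork protein, was at -0.23 (mean 1.33 FPKM), and Dscc1, a subunit of an alternative clamp loader, at 0.25 (mean 1.38 FPKM). Cdca5, which encodes sororin, a protector of acetylated cohesin, was at 4.48 FPKM in knockout cells and 4.56 FPKM in wild-type cells (-0.02).

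Genes that protect or cleave cohesin in mitosis were all measured, with 3 of 8 above 0 and a median of -0.04. The mitotic kinase genes Aurkb and Plk1 were at -0.23 and 0.17, and the shugoshin genes Sgo1 and Sgo2a, guardians of cohesion at centromeres, at -0.21 and 0.12. Espl1, the separase gene, was at 1.75 FPKM in knockout cells and 1.82 FPKM in wild-type cells (-0.04), and its inhibitor securin, Pttg1, at 10.1 FPKM in knockout cells and 10.4 FPKM in wild-type cells (-0.05). At 1.1-fold or more, 1 gene of the list lay on the higher and 2 on the lower side. The shares of all measured genes were 13.6% higher, 29.1% lower and 36.9% above 0.

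The paralogues known from meiosis were close to 0 FPKM. Smc1b was at 0.128 FPKM in knockout cells and 0.106 FPKM in wild-type cells. Stag3 was at 0.217 FPKM in knockout cells and 0.285 FPKM in wild-type cells. Rec8, the meiotic counterpart of RAD21, was listed at 0 in knockout cells and 0.0363 FPKM in wild-type cells, and Rad21l at 0 in both. None of the 5 germline paralogues, Ctcfl included, was measured.

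The other SMC complexes had medians near that of all measured genes. Condensin, which compacts mitotic chromosomes, had 4 of 8 genes above 0 and a median of -0.04. Ncapd2 was at 0.18 and Ncapg at -0.17, Ncapd3 was at -0.15 and Ncaph2 at -0.13, and the SMC genes Smc2 and Smc4 were at 0.10 and 0.04. The SMC5/6 complex, which acts in DNA repair, had 1 of 7 genes above 0 and a median of -0.05. Nsmce4a was at 0.28, and Smc5, Eid3 and Smc6 were at -0.23, -0.14 and -0.14. At 1.1-fold or more, 1 condensin gene lay on the higher and 2 on the lower side, and 1 and 3 SMC5/6 genes did so. The shares of all measured genes were 13.6% higher, 29.1% lower and 36.9% above 0.

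Of 13 other architectural or CTCF-interacting genes, 8 lay above 0 and the median was 0.02. Npm1, which encodes the nucleolar protein nucleophosmin and can share reads with processed copies, was at 64.3 FPKM in knockout cells and 46.9 FPKM in wild-type cells (0.45). Patz1, a zinc finger gene, was at 2.19 FPKM in knockout cells and 2.93 FPKM in wild-type cells (-0.30). Top2b, whose topoisomerase acts at loop anchors, was at -0.17, and Parp1, a poly(ADP-ribose) polymerase gene, at 0.15. Yy1, a zinc finger protein gene tied to enhancer loops, was at 13.1 FPKM in knockout cells and 12.9 FPKM in wild-type cells (0.02). At 1.1-fold or more, 3 genes lay on the higher and 2 on the lower side. The shares of all measured genes were 13.6% higher, 29.1% lower and 36.9% above 0.

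**Figure D4:**
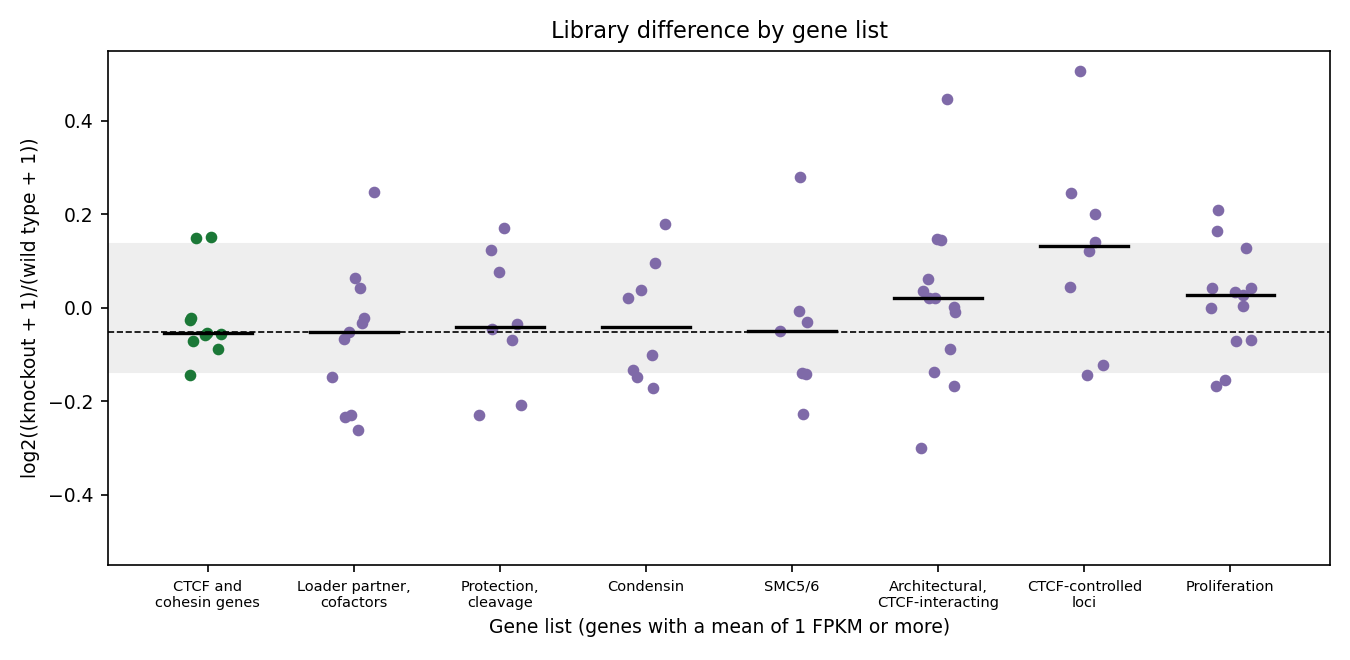
Difference between the libraries, log2((knockout + 1)/(wild type + 1)), for each measured gene (points, spread sideways for sight) of the CTCF and cohesin genes and 7 further lists; bars are medians, the dashed line is the median of all measured genes at -0.05 and the band marks differences under 1.1-fold. The 10 members span -0.14 to 0.15. On this deposited scale the CTCF-controlled loci have the highest median at 0.13, and the medians of the other lists lie between -0.05 and 0.03. On a common FPKM sum the architectural list (0.45) and proliferation (0.41) have higher medians than these loci (0.38).

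Proliferation genes, given because several cohesin cofactors follow the cell cycle, had 8 of 13 measured above 0 and a median of 0.03. Among all measured genes 36.9% were above 0. Mki67 was at 34.4 FPKM in knockout cells and 29.6 FPKM in wild-type cells (0.21), and Birc5 was at 0.16. Mcm2 was at -0.17 and Rrm2 at -0.16. Their part in the differences of Rad21 and Smc1a was not tested.

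CTCF is known to control the neighbours H19 and Igf2 and the promoter choice of clustered protocadherins. Of 25 entries from these loci 8 were measured, 6 above and 2 below 0, with a median of 0.13 on the deposited scale. At 1.1-fold or more, 4 lay on the higher and 1 on the lower side. Among all measured genes 36.9% were above 0, 13.6% were 1.1-fold or more higher and 29.1% lower. On a common FPKM sum the median of these loci was 0.38, as was that of the CTCF and cohesin genes. H19 was at 297 FPKM in knockout cells and 209 FPKM in wild-type cells (0.51), and Igf2 at 207 FPKM in knockout cells and 190 FPKM in wild-type cells (0.12), beside a Ctcf difference of -0.03. The gamma protocadherins, which share exons and stand in the table as 1 entry of 22 joined genes, were at 75.3 FPKM in knockout cells and 82.0 FPKM in wild-type cells (-0.12). Of 21 Pcdhb entries 5 were measured, 4 above 0, with Pcdhb16 at 2.29 FPKM in knockout cells and 1.78 FPKM in wild-type cells (0.25) and Pcdhb18 at 1.20 FPKM in knockout cells and 0.910 FPKM in wild-type cells (0.20). The 1 below 0, Pcdhb22, was at 1.53 FPKM in knockout cells and 1.80 FPKM in wild-type cells (-0.14). These 5 had means of 1.05 to 2.51 FPKM. Their implied standard errors, 0.27 to 0.38, refer to the log2 ratio of FPKM without a pseudocount. On that scale Pcdhb16 was at 0.37, Pcdhb18 at 0.39, Pcdhb20 at 0.27, Pcdhb17 at 0.06 and Pcdhb22 at -0.23. A joined entry does not show which promoters were used.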

How the data were processed

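RNA of 2 libraries, 1 Sptbn1 knockout and 1 wild type, was analysed. RNA was isolated with TRIZOL, per the labels' protocols, and 1 µg went into an Illumina TruSeq RNA library. Per the series' design text, reads were checked with FastQC and Trimmomatic, aligned with TopHat2 2.0.10 to NCBI mouse build 37.2 and quantified with Cufflinks, and Cuffdiff2 made the comparison. The authors deposited FPKM per gene for each library and a p-value per gene. No source used here gives other settings. The knockout column carries the library's title. The other column's header holds both a wild-type and a -/- mark and was matched to the wild-type library by that library's title, WT.

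Cufflinks divides fragments between similar transcripts, so genes with near-identical or processed copies are uncertain, and an FPKM of 0 may be a failed estimate. Counting by strand is not given, so reads where Ribc1 overlaps Smc1a (0.287 FPKM in knockout cells, 0.305 FPKM in wild-type cells) and Gm5914 overlaps Ctcf (1.06 FPKM in knockout cells, 1.12 FPKM in wild-type cells) cannot be told apart. Overlaps, older names and promoters come from NCBI RefSeq tables of GRCm38.p6. Of 156 listed genes and entries 155 were found, 9 under older names, and Cdk1 was not analysed here.

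Where a name recurred, its row of highest mean level was kept. Differences used a pseudocount of 1 FPKM, so changes of low genes are understated. The implied standard error is the absolute log2 ratio of FPKM divided by the normal quantile of the deposited p-value. The calculation was tested on simulated data. Named genes are the members, Sptbn1, H19 and Igf2, the germline paralogues, the sex markers and up to 4 measured genes of each list with the largest differences. Mau2, Esco1, Cdca5, Espl1, Pttg1, Smc2, Smc4, Yy1, Krt18, Des, Tie1, Myod1, Myog, Epcam and the gamma protocadherin and lysozyme entries were named after their values were seen. Members and lists were chosen with earlier results of these data known. With 1 library per genotype no test was run. Alternatives changed the pseudocount, the scaling, the filter and the handling of repeated names. Python 3.11.15, pandas 2.3.3, numpy 2.4.6, scipy 1.17.1 and matplotlib 3.10.9 were used.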

Additional observations from a re-analysis of the deposited data

How the results depend on the processing

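No paired analysis was possible because each genotype had 1 library. No member reached 2-fold under any of the 7 alternatives to scale, pseudocount or repeated names. Summing repeated names could not move the members, none of which is repeated. With a pseudocount of 0.1 FPKM, with none and with repeated names summed, the members' counts stayed within the limit set, 1.5 times the count. The list medians stayed within theirs, the median implied standard error of single genes, a wide limit for a median. That of the CTCF-controlled loci rose from 0.13 to 0.19 with a pseudocount of 0.1 FPKM and to 0.20 with none. Filters were tried on the number of members measured, 10 in each case, at 5 FPKM on the number with a deposited p-value under 0.05, and on the background, where 11.8% of genes at 5 FPKM or more were 1.1-fold higher and 28.9% lower, and 13.4% and 24.6% of genes above 0 in both libraries. A pseudocount of 1 FPKM, added after the data were seen, was tried on the paralogue shares alone and moved them by less than the limit. On a common FPKM sum the median difference was 0.38 for the members, 0.31 for the loader partner and cofactors, 0.35 for protection and cleavage, 0.36 for condensin, 0.34 for SMC5/6, 0.45 for the architectural list and 0.41 for proliferation. For the CTCF-controlled loci it was 0.38, below the architectural list and proliferation. On that sum 0 members lay below 0, 10 were 1.1-fold or more higher and 0 lower. The reason is that this scaling moved the median of all measured genes to 0.32. Leaving out 465 small and ribosomal RNA names together with 3 rows over 5000 FPKM, that median was -0.01 and the members' -0.01. The part of each of these was not tested. With this scaling, with centring on the median gene and with a common upper quartile, the count of members 1.1-fold or more lower, Stag1 on the deposited scale, was 0. With a common upper quartile 4 members lay below 0, and 6 did with each of the other scalings just named. Unknown depth and 1 library per genotype limit what differences of this size can show.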
